A study of Mus musculus with 8 samples.

Results

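On these mouse kidney arrays, 4 miRBase entries gave the brightest signals in the sham-operated group: mmu-miR-6366, mmu-miR-3963, mmu-miR-5100 and mmu-miR-3968. They were selected on that brightness, and were found by name among the non-control spots of the 8 arrays, with every probe kept. They are 4 of the 1881 mouse entries on the array, and all 4 are among the 408 entries detected on at least 4 arrays and tested. Whole kidney of male C57BL/6 mice aged 8 weeks was taken 7 days after unilateral ureteral obstruction (UUO), in which the urine outflow of 1 kidney is blocked and the kidney becomes inflamed and fibrotic, or after sham surgery, which is the control. Each group had 4 samples, numbered 1, 2, 3 and 8 for Sham and 1 to 4 for UUO, with 1 array per sample and 100 ng of total RNA per labelling. The labels do not say that each sample came from a separate mouse, so the p-values measure the spread between these samples, which may be technical. All 8 arrays were on 1 slide, with Sham in row 1 and UUO in row 2, so slide row and surgery cannot be told apart.

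A microRNA (miRNA) is cut from a hairpin precursor and guides an Argonaute protein to messenger RNAs, mainly through its seed, bases 2 to 8. The miRBase catalogue took in many entries from short RNA sequencing, and some of the later ones have been questioned because pieces of transfer RNA (tRNA), ribosomal RNA and other abundant RNAs also appear in such libraries. The labelling used here joins a dye to the 3′ end of any RNA with a free 3′ hydroxyl group, and a spot then reports whatever labelled RNA binds its probe. No target or function is described here for the 4 entries.

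The mature sequences are shown because the probes read only their 3′ ends and because 3 of the 4 overlap in their letters. They are from RefSeq (GRCm38.p6), written 5′ to 3′ with the seed in capitals.
miR-6366: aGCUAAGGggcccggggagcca
miR-3963: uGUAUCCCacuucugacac
miR-5100: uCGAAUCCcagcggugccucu
miR-3968: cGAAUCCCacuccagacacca
No other mature mouse sequence in the table had the seed of any of the 4, and the 4 seeds differ from one another. miR-3968 and miR-5100 share the run CGAAUCCCA of 9 bases, which starts at base 1 of the former and base 2 of the latter. miR-3963 and miR-3968 share AUCCCACU, 8 bases. Each of these runs was in 2 of the 1679 mature sequences, the pair itself. miR-6366 shared no run longer than 3 bases with the others and had the highest GC content, 72.7%, against 47.4% for miR-3963, 61.9% for miR-5100, 57.1% for miR-3968 and a median of 52.2% over all mature sequences.

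Letters found in tRNA were looked for in the mature RNA strand, since every mature tRNA ends in CCA and the T arm of tRNA commonly holds UUCGA with neighbouring bases. The end CCA was present in miR-6366 and miR-3968, against 23 of all 1679 mature sequences (1.37%). UCGAAUC was in miR-5100 alone among the 1679 (0.0596%), and CGAAUC, which lies within it, was in 4 (0.238%), including miR-5100 and miR-3968. UUCGA was in 5 (0.298%), none of them among the 4 entries. The miR-5100 hairpin does hold UUCGA across the start of the mature sequence, which follows the bases CAGAGU. The tested miRNA with UUCGA, miR-10b-3p, was not called, at −0.20 ± 0.10 (SE, adjusted p = 0.122, limma). AUCCCA, added after the sequences were compared, was in 7 (0.417%), including miR-3963, miR-5100 and miR-3968. These are matches of letters only. The 4 sequences were not compared with tRNA or ribosomal RNA, whose sequences were not used here, so an origin from such RNA was not tested. Among the 6 other tested miRNAs that end in CCA were the leukocyte miRNA miR-223-3p, with a log2 fold change of 2.30 ± 0.07 (SE, adjusted p = 3.69e-08, limma), and miR-212-3p at −0.41 ± 0.07 (adjusted p = 0.00129). miR-3620-3p was also lower, at −0.14 ± 0.05 (adjusted p = 0.0252), and miR-7022-3p, miR-6908-5p and miR-6995-5p were not called, at −0.19, 0.17 and −0.15.

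RefSeq places the mature miR-6366 on the minus strand at chr16:18165093-18165114 and miR-3963 on the minus strand at chr3:151023839-151023857, with no gene other than their own over either hairpin. The nearest other gene to the miR-6366 hairpin was the long noncoding RNA gene Gm34679, 4345 bases away. miR-5100 is on the plus strand at chr11:60728698-60728718, within the body of Mief2, a mitochondrial dynamics gene. miR-3968 is on the minus strand at chr11:115447969-115447989, within the body of Trim80. Exons and introns were not analysed here. None of the 4 hairpins overlapped an annotated tRNA gene, the closest being n-TRtcg4, 34110 bases from the miR-3968 hairpin.

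Each entry was read by 2 probes that differ by 1 base. They are shown because their length sets what each spot can bind, with the longer probe given here 5′ to 3′.
miR-6366: tggctccccggg
miR-3963: gtgtcagaagtgggat
miR-5100: agaggcaccgctgg
miR-3968: tggtgtctggagtgg
All 8 probes are complementary to the 3′ end of their mature sequence, so none reads the whole sequence. The seed lies wholly outside both miR-6366 probes and the shorter miR-5100 probe, while the other 5 probes reach into the seed of their entry. The miR-6366 probes cover 11 and 12 of its 22 bases and have 81.8% and 83.3% GC. Mouse probes on the array had a median length of 16 bases and a median GC of 53.3%, and 145 of 4415 (3.28%) were 11 bases or shorter. No other mature miRNA in the table held the target of any of the 8 probes. In 32851 windows of genome sequence at promoters, the 11-base miR-6366 target was in 16 and the 12-base one in 6. The 13-base miR-5100 target was in 2, and the targets of the other 5 probes were in none. Other short RNAs were not searched for these targets. The files list all 8 as unmapped on the mouse build mm9, as they do for 1191 of the 1881 entries.

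In processed intensity, the background-subtracted spot brightness on a linear scale, the 11-base miR-6366 probe read 199748, 200460, 196124 and 193547 in Sham 1, 2, 3 and 8. It read 163286, 172529, 164758 and 166699 in UUO 1 to 4. miR-6366 was the brightest entry and miR-3963 the next on all 8 arrays. The brighter miR-3963 probe averaged 121142 ± 1563 in Sham and 126730 ± 3614 in UUO (SD, n = 4 each). miR-5100 averaged 34165 ± 626 and 29883 ± 1571, and miR-3968 averaged 23520 ± 785 and 17269 ± 1081. miR-5100 had rank 3 and miR-3968 rank 4 on every Sham array, and ranks 4 and 5 on every UUO array. The entry that moved past them was the fibrosis-linked miR-21a-5p, which went from between rank 10 and 14 in Sham to rank 3 in UUO. Just outside the 4 in Sham was let-7f-5p at 13119, against 23520 for miR-3968. This order chose the entries and is a description. It also compares different probes, whose brightness depends on their length and base composition as well as on the amount of RNA.

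The readings were precise within an array. No mouse spot was saturated, and each probe was averaged over 13 to 15 spots per array. The coefficient of variation between those spots had a median of 1.96% for the 8 probes, with a range of 0.746 to 6.06%, against 5.97% over the 623 probes detected on all arrays. Those 623 include many dimmer probes, and probes of like brightness were not compared.

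The 4 entries together held at least 50.1% of the summed mouse probe signal of every array. Their probes gave 58.8, 61.3, 60.9 and 58.2% of it in Sham 1, 2, 3 and 8, and 50.1, 53.8, 52.3 and 51.5% in UUO 1 to 4. The 2 groups did not overlap. The mean fell by 7.87 percentage points, from 59.8 ± 1.53% to 51.9 ± 1.56% (SD, n = 4 each). With normexp background correction, which here added an offset of 50 to every spot, the 4 entries held 46.2% in Sham and 40.5% in UUO. Their share fell by 5.67 points. The offset enters the sum for all 4415 probes, so these shares are not comparable with those above. The entries were chosen as the brightest of the Sham arrays, and that choice favours a fall in UUO, so the difference in their sum is given as a description, and the p-values for single entries below are not independent of the choice. By the mean of all 8 arrays, miR-21a-5p has rank 4 and miR-3968 rank 5.

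In percentage points miR-6366, the entry with the largest share, fell the most. Since brightness in Sham chose the entries, the p-values of these shares are given as descriptions. It held 32.8, 34.4, 34.1 and 32.5% in the Sham arrays and 25.4, 27.3, 26.5 and 26.6% in the UUO arrays, and its mean fell by 7.01 points (exact permutation test, 2-sided, p = 0.0286, the smallest p that 4 against 4 arrays can give, and 0.0357 adjusted over 5 shares). miR-5100 fell by 0.67 points, from 4.25 ± 0.06% to 3.58 ± 0.17%, and miR-3968 by 0.80 points, from 2.72 ± 0.13% to 1.91 ± 0.11%, each with the same adjusted p and without overlap between groups (exact test, n = 4 each). miR-3963 did not follow them, and its mean share was 0.61 points higher in UUO, so the fall of the sum is net of that. Its share was 19.1, 19.7, 19.7 and 18.9% in Sham and 19.2, 20.7, 20.3 and 19.7% in UUO (exact p = 0.171, n = 4 each), and the groups overlapped.

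A share can fall because other signals grow, and both movements were measured. miR-21a-5p went from 1.20 ± 0.03% to 8.01 ± 0.42% of the signal (SD, n = 4 each). Before any scaling, the summed signal of the 4 entries was 543869 ± 6934 in Sham and 492554 ± 13448 in UUO, and every UUO value was below every Sham value. Both miR-3963 probes went the other way. Its 16-base probe read 119875 to 123269 in Sham and 123840 to 131830 in UUO, and its 15-base probe 54428 to 56083 and 60937 to 64998. The sum of all entries other than the 4 was 366297 ± 22670 and 456480 ± 20158, and without miR-21a-5p it was 355331 ± 22322 and 380476 ± 15667. With miR-21a-5p taken out of the denominator, an alternative added after the data were seen, the share of the 4 fell by 4.09 points, from 60.5 to 56.4%. On that denominator the share of miR-3963 was 2.11 points higher in UUO (adjusted p = 0.0286, exact test) and the other 3 shares were still lower.

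**Figure D1:**
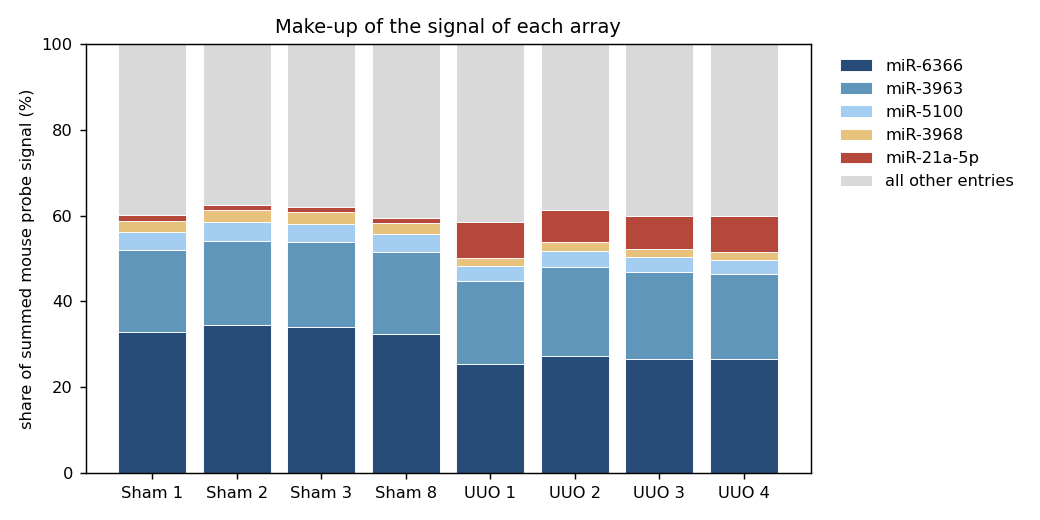
Stacked bars give the percent of the summed mouse probe signal of each array (vertical axis) held by each of the 4 entries, by miR-21a-5p and by all other entries, for the 4 Sham and the 4 UUO arrays. The 4 entries sum to between 58.2 and 61.3% in Sham and between 50.1 and 53.8% in UUO, with most of the difference in miR-6366.

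To compare groups, each array was divided by the 75th percentile of its 623 probes detected on all arrays, and log2 was taken of the brightest probe of each entry. On this scaled log2 level, miR-6366 read 8.92, 8.99, 8.92 and 8.88 in Sham 1, 2, 3 and 8 and 8.40, 8.63, 8.48 and 8.44 in UUO 1 to 4. The groups did not overlap, and the level fell by 0.44 ± 0.06 (SE) on the log2 scale, 1.35-fold (adjusted p = 0.000319, limma, Benjamini-Hochberg over 408 miRNAs). The size depended on the scaling, with changes of −0.81 to 0 over 10 settings.

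miR-3968 had the widest gap of the 4. It read 5.85, 5.95, 5.85 and 5.78 in the Sham arrays and 5.15, 5.44, 5.18 and 5.09 in the UUO arrays. Its level fell by 0.64 ± 0.08 (SE) on the log2 scale, 1.56-fold (adjusted p = 0.000205, limma). That size was not unusual for these arrays, since 51 of the 408 tested miRNAs (12.5%) fell further. Over the 10 settings it changed by −0.98 to −0.36.

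miR-5100 read 6.41, 6.42, 6.39 and 6.37 in the Sham arrays and 5.97, 6.20, 5.99 and 5.87 in the UUO arrays, again without overlap. It fell by 0.39 ± 0.07 (SE) on the log2 scale, 1.31-fold (adjusted p = 0.00137, limma). With scaling to the array's dmr control features its change was −0.10 and was not called (adjusted p = 0.141, limma), and the 10 settings ran from −0.80 to that value.

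miR-3963 was not called. It read 8.22, 8.27, 8.22 and 8.18 in the Sham arrays and 8.01, 8.24, 8.10 and 8.01 in the UUO arrays, where UUO 2 lay inside the Sham range. Its log2 fold change was −0.13 ± 0.06 (SE, adjusted p = 0.0930, limma), with a 95% interval of −0.27 to 0.01. The call turned on 1 array: without UUO 2 the change was −0.18 and was called lower (adjusted p = 0.0101, limma). UUO 2 was the highest UUO array for all 4 entries. The sign of the miR-3963 change also turned with the scaling, from −0.43 to 0.16 over 10 settings.

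**Figure D2:**
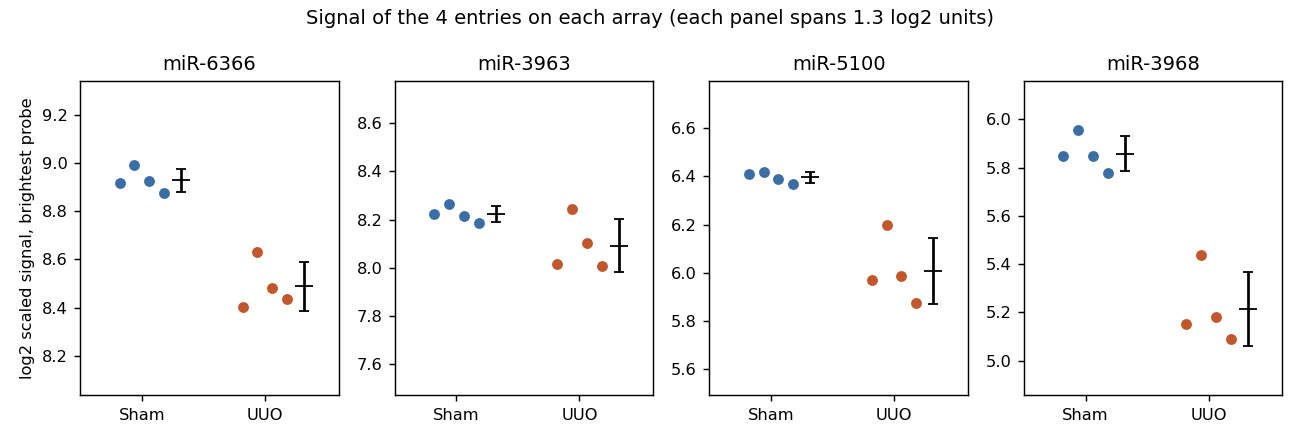
Each point is 1 array, with the log2 scaled signal of the brightest probe on the vertical axis, Sham in blue and UUO in orange, and black marks for the mean ± SD. Groups are apart for miR-6366, miR-5100 and miR-3968 and overlap for miR-3963, and UUO 2 is the highest orange point in every panel.

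In all, 3 of the 4 entries were called lower and none higher, and 3 of 4 had groups that did not overlap. Over all 408 tested miRNAs 27.7% were called lower, 39.7% were called higher and 61.3% had groups that did not overlap, so non-overlap was common on these arrays. The median log2 fold change was −0.41 for the 4 entries and 0.06 for all tested miRNAs. The Sham arrays lay close together for these entries, with SDs of the log2 level from 0.02 to 0.07 against a median SD of 0.11 over the tested miRNAs. The SDs in UUO, 0.10 to 0.15, were close to that group's median of 0.11. Both medians pool bright and dim miRNAs, and miRNAs of like brightness were not compared.

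**Figure D3:**
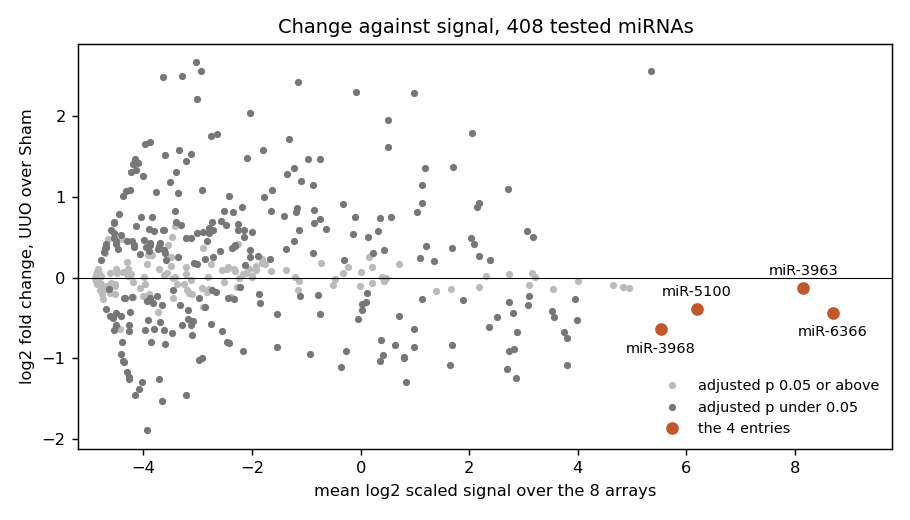
Each point is 1 of the 408 tested miRNAs, with its mean log2 scaled signal over the 8 arrays on the horizontal axis and its log2 fold change, UUO over Sham, on the vertical axis. The 4 entries, in orange, lie at the right end with changes of −0.13 to −0.64, and many dimmer miRNAs changed more.

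Signals of miRNAs listed as cell type markers were read on the same arrays, and cells were not counted. All 6 leukocyte miRNAs of a marker list were called higher, and their summed processed signal was 748 to 826 in Sham and 3676 to 4144 in UUO. Of the 8 kidney miRNAs 6 were called lower and none higher, with a sum of 30208 to 33938 in Sham and 22029 to 24528 in UUO. Of 3 red blood cell miRNAs 2 were called lower, with sums of 1526 to 2205 and 1017 to 1669, and the liver miRNA miR-122-5p was lower too. Only 2 of 4 striated muscle and 2 of 3 neural miRNAs were tested, and none of these was called. The part of these changes in the fall of the 4 entries was not tested. In whole tissue, fewer cells of a type and less RNA per cell cannot be told apart.

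The 4 entries were next compared within arrays, where the scaling cancels. For each pair the log2 ratio of the brightest probes was taken on each array, and 6 pairs were tested with adjustment over the 6. Relative to miR-3963, miR-6366 fell by 0.31, from 0.70 ± 0.01 to 0.40 ± 0.02 (SD, n = 4 each, exact p = 0.0286, adjusted 0.0343). Relative to miR-3968, miR-3963 was higher in UUO by 0.51, miR-5100 by 0.25 and miR-6366 by 0.20. miR-3963 was also higher relative to miR-5100, by 0.26. These 4 differences had the same exact p of 0.0286 (adjusted 0.0343), with no overlap between groups.

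miR-6366 and miR-5100 were the pair whose difference was not called. Their ratio was 2.53 ± 0.03 in Sham and 2.48 ± 0.06 in UUO (SD, n = 4 each), a difference of −0.05 (exact p = 0.2). Differences between single Sham and UUO arrays ran from −0.14 to 0.06. With the mean of both probes in place of the brightest, the difference was −0.13 (adjusted p = 0.0286, exact test), so this pair depended on the probe.

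Probes of 1 entry also differed from each other. The longer probe was brighter in 3 entries: in Sham by 2.20-fold for miR-3963, 7.59-fold for miR-5100 and 19.7-fold for miR-3968. For miR-6366 the shorter probe of 11 bases was 1.85-fold brighter than that of 12. For 236 other miRNAs with a pair of probes detected on all arrays that differ by 1 base, ratios were averaged over the 8 arrays. Their median log2 ratio of longer to shorter was 0.60, and the ninetieth percentile was 1.58. By this mean over the 8 arrays, none of the 236 had a higher ratio than miR-3968. A higher one than miR-5100 was found in 2, and a lower one than miR-6366 in 3. Only 24 of the 236 had a brighter shorter probe at all. In Sham alone the log2 ratio was 4.30 for miR-3968, 2.92 for miR-5100 and −0.89 for miR-6366.

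The ratio of the pair of probes also moved with surgery. On the log2 scale it fell by 0.12 for miR-3963, from 1.14 ± 0.01 to 1.01 ± 0.01 (SD). For miR-6366 it fell by 0.10, from −0.89 ± 0.02 to −0.99 ± 0.02 (SD), and for miR-5100 it fell by 0.07, from 2.92 ± 0.01 to 2.86 ± 0.02 (SD). Each had an exact p of 0.0286 (adjusted 0.0381 over the 4 entries, n = 4 each), in a comparison added after the data were seen. miR-3968 did not differ beyond its spread, at 4.30 ± 0.03 and 4.26 ± 0.05 (SD, exact p = 0.257, n = 4 each). Of the 236 other miRNAs 27.1% had groups that did not overlap in this ratio, and the size of their difference had a median of 0.04 and a ninetieth percentile of 0.15. These differences were smaller than that ninetieth percentile, and the cause was not tested.

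The choice of probe therefore changed the reading of miR-3963. Its 16-base probe changed by −0.13 ± 0.06 (SE, adjusted p = 0.0906) and its 15-base probe by −0.0051 ± 0.059 (adjusted p = 0.951, limma over all tested probes). For the other 3 entries both probes were called lower, with log2 changes of −0.44 and −0.54 for miR-6366 (11 and 12 bases), −0.32 and −0.39 for miR-5100 (13 and 14 bases) and −0.60 and −0.64 for miR-3968 (14 and 15 bases).

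**Figure D4:**
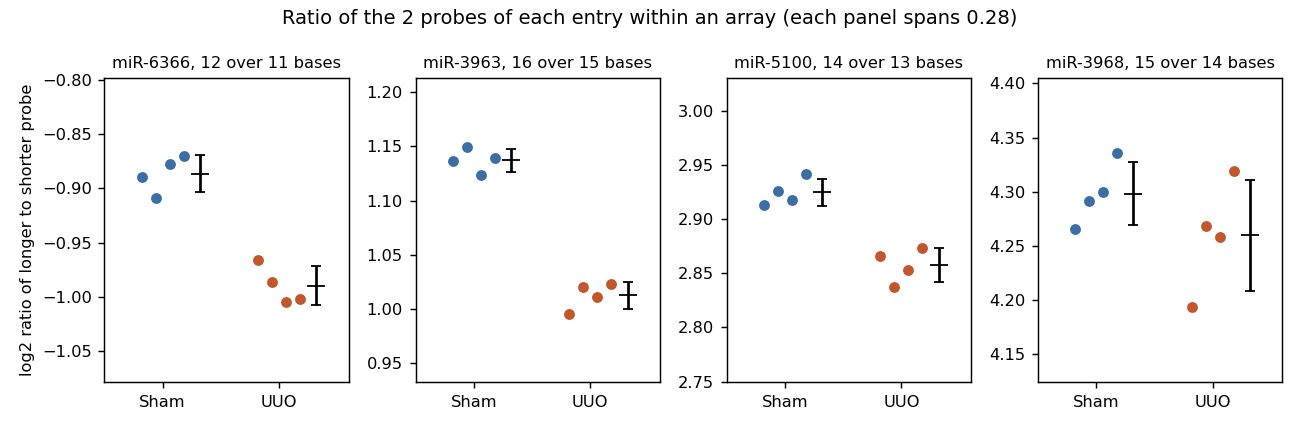
Each point is 1 array, with the log2 ratio of the longer to the shorter probe of an entry on the vertical axis, Sham in blue and UUO in orange, and black marks for the mean ± SD. The ratio is lower in UUO for miR-6366, miR-3963 and miR-5100, and the groups overlap for miR-3968.

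The miRNAs with the most similar profile were taken as those with the smallest root mean square difference of centred log2 levels over the 8 arrays. The nearest to miR-6366 was miR-5100, at 0.05 (median of all tested miRNAs 0.35), followed by miR-652-5p and miR-218-5p. The nearest to miR-5100 were miR-6368, another entry of the questioned kind, miR-450a-5p and miR-6366. miR-3963 was nearest to miR-103-3p, miR-3620-3p and let-7a-5p, whose log2 fold changes were −0.14, −0.14 and −0.11. miR-3968 was nearest to miR-487b-3p, miR-107-3p and miR-101a-3p, at −0.64, −0.61 and −0.64. In the order of likeness to miR-6366, miR-3968 was at place 26 and miR-3963 at place 48. A likeness over 8 arrays in 2 groups includes the difference between those groups.

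The 4 entries hold much of the summed signal, so a scaling to that sum includes their change. Scaled to the sum of all mouse probe signals, 204 miRNAs were higher and 91 lower, with a median log2 fold change of 0.19. Scaled to that sum without the 4 entries, 131 were higher and 144 lower, with a median of −0.02. That smaller sum itself averaged 366297 in Sham and 456480 in UUO, and miR-21a-5p within it 10966 and 76004. What each part contributed to the calls was not tested. The percentile used here gave 162 higher and 113 lower, and over 10 settings the share of calls that were higher ran from 33.4 to 79.4%. miR-3968 was called lower in all 10 settings, miR-6366 and miR-5100 in 9 each, and miR-3963 was called lower in 3, higher in 1 and in neither direction in 6. Relative to the median of all tested miRNAs, the change of miR-6366 ran from −0.58 to 0.04, that of miR-3968 from −0.87 to −0.61, that of miR-5100 from −0.76 to −0.36 and that of miR-3963 from −0.23 to 0.04. Quantile normalization is a special case: it gives the same value to each rank, and as miR-6366 and miR-3963 hold the same ranks on every array, it sets both changes to 0 by construction.

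**Figure D5:**
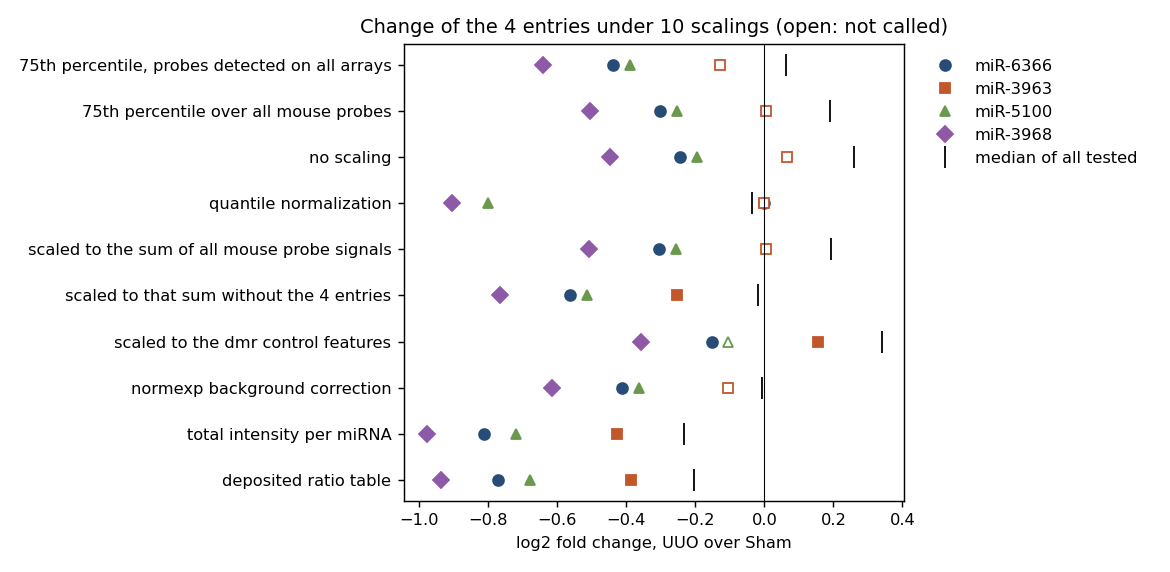
For each of 10 settings (vertical axis), symbols give the log2 fold change, UUO over Sham, of the 4 entries, filled where called by limma at an adjusted p under 0.05 and open where not, and a bar gives the median of all tested miRNAs. The spacing of the 4 entries is similar in the settings other than quantile normalization, while their position relative to 0 moves, and miR-3963 lies on either side of 0.

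Other miRBase entries of the questioned kind changed in both directions. Beside the 4, the list held 93 names, of which 60 were on the array and 22 were tested. Of those 22, 12 were called higher, 4 lower and 6 in neither direction, with a median log2 fold change of 0.43. Over all tested miRNAs 39.7% were higher and 27.7% lower, with a median of 0.06. The balance moved with the setting, from 16 higher and 2 lower with dmr scaling to 7 higher and 6 lower with the deposited ratio table. The list was chosen with earlier results of these data known. It was matched by exact name, so tested lettered forms of its miR-3473 and miR-3470 were not counted. Of these, miR-3473b (−0.89, adjusted p = 0.00749), miR-3473a (−0.77, 0.0123) and miR-3473g (−0.19, 0.0125) were called lower (limma). miR-3473e (0.65, 0.0296) and miR-3473f (0.39, 0.0482) were called higher, and miR-3470a (−0.25, 0.410) was not called. The 3 highest were miR-5121 at 2.21 ± 0.15 (SE), miR-721 at 1.58 ± 0.24 and miR-5128 at 1.47 ± 0.38, all called higher in each of the 10 settings, in which they ran from 0.96 to 2.50, 0.56 to 1.87 and 1.03 to 1.76. The 3 lowest of the 22 were miR-690 at −0.84 ± 0.18, miR-5113 at −0.66 ± 0.18 and miR-3962 at −0.53 ± 0.05. miR-690 (−1.15 to −0.55) and miR-3962 (−0.87 to −0.25) were called lower in all 10 settings and miR-5113 (−1.34 to −0.21) in 8. With a doubled floor miR-5113 changed by −0.08 and was not called, and miR-3962 changed by −0.24 and was called.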

How the data were processed

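Per the file headers, Agilent Feature Extraction 10.7.3.1 gave the authors' spot intensities (linear processed signal), with the background subtracted. The deposited files also give a total intensity per miRNA, and the deposited series table holds ratios, which equalled that total times a factor per array divided by the miRNA's median. How that factor was set is unknown here.

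Control spots and spots flagged as outliers were left out, and each probe's other spots were averaged. Detection needed over 50% of a probe's spots to be well above background. Signals were divided by the array's 75th percentile, raised to a floor of log2 −4.89 and logged. The 408 miRNAs detected on at least 4 arrays were fitted by limma 3.58.1 (R 4.3.3) on group alone. Calls are adjusted p-values under 0.05. The fit was tested on simulated data. A share is the summed mean signal of an entry's probes over that of all mouse probes. Shares and ratios were tested with exact permutation tests over 70 splits. Array number limits the precision.

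The members and lists were chosen with earlier results of these data known. The miRNAs named were the 4 entries, their 3 nearest profiles, entries brighter than the dimmest of them, and tested miRNAs with the searched letters. Up to 3 called questioned entries in each direction were also named. The miRNAs let-7f-5p, miR-122-5p and the lettered forms of miR-3473 and miR-3470 were added after their values were seen. Same-numbered samples did not deviate together (correlations −0.000808, 0.12 and −0.30), so numbers were not taken as pairs. RefSeq sequences matched 350 of the 408 tested miRNAs and 4 of the 4 entries.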

Additional observations from a re-analysis of the deposited data

How the results depend on the processing

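Over the alternatives run, the fall of miR-3968 and of its share, of the shares of miR-6366 and miR-5100, and 5 of the 6 differences between entries kept their direction and, where tested, their call, and the summed share of the 4 entries fell in each. The calls on single shares are not independent of the choice of the entries by their brightness in Sham. miR-6366 lost its call with quantile normalization alone (0, by construction), and miR-5100 with dmr scaling alone (−0.10). miR-3963 changed by 0.0061 with the percentile over all mouse probes, 0.065 without scaling, 0.0042 with scaling to the signal sum and 0.16 with dmr scaling (called higher, adjusted p = 0.0245, limma). It was called lower with that sum without the 4 entries (−0.25), with the total intensity per miRNA (−0.43) and with the deposited ratio table (−0.39). Leaving out 1 array at a time gave −0.18 to −0.10 for miR-3963. Its share rose by 2.11 points without miR-21a-5p in the denominator, and the difference of miR-6366 from miR-5100 was −0.13 with the mean of all probes. For these changes other than that of quantile normalization the cause was not tested. With a replicate block, over the numbers both groups share, miR-6366 changed by −0.44, miR-3963 by −0.11, miR-5100 by −0.35 and miR-3968 by −0.63, no call of the 4 entries changed, and 226 miRNAs were called, against 275 without the block. Shares and ratios with 1 array left out, or with the block, are values with no test. The share of calls that were higher was 69.8% for the percentile of all mouse probes, 73.4% without scaling, 43.9% with quantile normalization, 79.4% with dmr scaling, 46.2% with normexp correction, 33.4% with total intensity and 36.3% with the ratio table, against 58.9% with the scaling used here. miR-5113 was not called with a doubled floor (−0.08, adjusted p = 0.195, limma), and without the filter on dim miRNAs miR-5128 (0.117), miR-690 (0.0554) and miR-5113 (0.136) were not called. With a floor, the change of dim entries is understated.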

Other observations

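In both slide rows the summed share of the 4 entries was higher at the 2 inner positions than at the outer ones. Sham 2 and 3, at columns 2 and 3 of row 1, read 61.3 and 60.9%, and Sham 1 and 8, at columns 1 and 4, read 58.8 and 58.2%. UUO 2 and 3, at columns 2 and 3 of row 2, read 53.8 and 52.3%, and UUO 1 and 4 read 50.1 and 51.5%. This was noticed after the values were seen and was not tested. The gap between groups was wider than that between positions. Each column held 1 Sham and 1 UUO array, so a block for array position cannot move the group changes, only their p-values. That block was fitted to the scaled log2 level and not to the share. With it miR-6366 (adjusted p = 0.00145), miR-5100 (0.00442) and miR-3968 (0.000490) were called lower and miR-3963 (0.104) was not (limma).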
